A study of Homo sapiens with 2 samples.

Results

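The alpha-arrestin genes ARRDC3, ARRDC4, ARRDC2 and TXNIP were examined in a peak list of FLAG-tagged FOXO3 in U87MG, a human glioblastoma cell line. Members were chosen by position: a called peak belonged to a gene when its summit lay in a fixed hg19 window around that gene, and a gene without such a summit was kept as a member without a called peak. The 4 windows held 5 of the 9717 peaks called in the list. There were 2 at ARRDC3, 2 at TXNIP, 1 at ARRDC2 and none at ARRDC4. Because the genes were proposed with the peak list in view, every enrichment given here is a description with no test.

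The list came from CETCh-seq, in which genome editing puts an epitope tag on the endogenous factor and an antibody against the tag is used for chromatin immunoprecipitation. The series holds 1 FLAG library and 1 input library. Both samples had received LY294002, which inhibits phosphoinositide 3-kinase, and both carry a wild-type genotype label. No untreated cells, untagged FLAG library or second FLAG library was analysed here. There is therefore no replicate error. Each 95% interval of a fold or tag count is an exact Poisson interval of the ChIP tags at the summit, for counting error only. For a fold the background was held fixed, so its own counting error is left out.

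FOXO3 is a forkhead transcription factor that is held in the cytoplasm when the phosphoinositide 3-kinase and AKT pathway is active and enters the nucleus when that pathway is inhibited. Forkhead factors of the FOXO class recognise GTAAACA, most strongly in the longer form GTAAACAA. Alpha-arrestins are membrane-trafficking adaptors with an arrestin fold. Most carry PPxY motifs that recruit HECT ubiquitin ligases of the NEDD4 family to cargo such as receptors, integrins and transporters. TXNIP, the best known of them, binds thioredoxin and lowers glucose uptake by promoting the internalisation of the glucose transporter GLUT1, and its transcription is a classic readout of the glucose-sensing factors MondoA and Mlx.

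Promoter sequences of 3 of the genes are shown first, to be read beside the peaks. RefSeq promoters on GRCh38.p14 were matched by gene symbol, and all 4 genes matched, with 7 annotated starts in all (2 each for ARRDC3, TXNIP and ARRDC2 and 1 for ARRDC4). The peaks are on hg19, so the sequences were placed beside them only by their distance from the 5′ end of the gene. It was not checked that the 5′ ends used on the 2 builds are the same base. Each sequence below is the 250 bases before a start, 5′ to 3′ on the strand of the gene, with GTAAACAA or its reverse complement TTGTTTAC in capitals. In the ARRDC4 sequence, which has neither, the E box CACGTG is in capitals. The ARRDC3 downstream start (chr5:91380098-91380347, minus strand) and the TXNIP upstream start (chr1:145996580-145996829, minus strand) are shown because the highest peak of each gene lies there. The ARRDC3 upstream start (chr5:91383318-91383567, minus strand) is shown as the site of the weaker ARRDC3 peak, and ARRDC4 (chr15:97960453-97960702, plus strand) as the promoter without a called peak.
ARRDC3 downstream start: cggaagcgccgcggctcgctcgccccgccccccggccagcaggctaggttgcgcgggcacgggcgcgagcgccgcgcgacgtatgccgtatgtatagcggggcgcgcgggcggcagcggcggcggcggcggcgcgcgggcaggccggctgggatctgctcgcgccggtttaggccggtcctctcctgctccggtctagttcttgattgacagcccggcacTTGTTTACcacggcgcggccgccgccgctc
TXNIP upstream start: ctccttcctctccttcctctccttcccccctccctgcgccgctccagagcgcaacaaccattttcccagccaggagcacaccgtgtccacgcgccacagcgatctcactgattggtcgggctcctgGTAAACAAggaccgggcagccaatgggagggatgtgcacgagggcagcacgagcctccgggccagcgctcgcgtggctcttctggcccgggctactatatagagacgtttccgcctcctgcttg
ARRDC3 upstream start: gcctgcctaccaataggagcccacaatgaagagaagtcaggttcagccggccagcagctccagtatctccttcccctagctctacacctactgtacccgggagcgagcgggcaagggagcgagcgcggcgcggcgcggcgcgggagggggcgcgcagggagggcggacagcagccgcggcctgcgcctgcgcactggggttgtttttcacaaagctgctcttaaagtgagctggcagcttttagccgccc
ARRDC4: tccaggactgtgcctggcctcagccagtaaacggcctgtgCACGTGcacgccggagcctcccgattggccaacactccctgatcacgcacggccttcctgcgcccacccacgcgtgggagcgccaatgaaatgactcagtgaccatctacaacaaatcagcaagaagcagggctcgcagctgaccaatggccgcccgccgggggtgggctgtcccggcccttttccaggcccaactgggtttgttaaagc

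ARRDC3, an adaptor that directs the beta-2 adrenergic receptor and integrin ITGB4 to ubiquitin-dependent turnover, carried the highest fold enrichment of the whole list. The peak lay on chromosome 5 from 90675580 to 90676193 (hg19), and its summit was 3204 bp downstream of the 5′ end of the gene at 90679149, which is on the minus strand. At the summit 259 ChIP tags stood over a background of 5.45 tags, as worked back from the authors' fold and p-value. The authors' fold was 40.3 (95% interval 35.6 to 45.5), which is 10.4 times the median fold of 3.88 over all peaks. The peak ranked second by −log10 q, with 320.0 against a highest value of 370.8, and 15th by pileup. Its background was below that of 50.6% of all peaks.

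A second peak sat at the 5′ end of ARRDC3 itself. It spanned chromosome 5 from 90679111 to 90679340, with a summit 75 bp upstream of the 5′ end. Its fold was 5.64 (4.27 to 7.30), from 55 tags over a background of 8.94 tags, and 15.2% of all peaks had a higher fold. The 2 ARRDC3 summits were 3279 bp apart, and the downstream peak had 4.71 times the tags of the peak at the 5′ end. Their counting intervals, 228 to 293 tags and 41.4 to 71.6 tags, did not overlap. In the list, 6.97% of the 9647 neighbouring pairs of summits on chromosomes 1 to 22 and X were this close or closer.

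The highest peak of ARRDC3 coincided by distance with a second, internal start of the gene. RefSeq places a downstream ARRDC3 start 3220 bp after the upstream one on GRCh38, and the hg19 summit lay 16 bp short of that distance. ARRDC3-AS1, an antisense RNA gene, starts 2970 bp after the same point and is transcribed the other way. The called interval ran from 2956 to 3569 bp downstream of the 5′ end and so covered the distances of both starts. The sequence printed for the ARRDC3 downstream start is the whole stretch of 250 bp between these divergent starts. Which of the transcripts U87MG cells make was not measured.

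TXNIP carried the next highest peak of the 4 genes, at its own 5′ end. It lay on chromosome 1 from 145437998 to 145438537 (hg19), with a summit 96 bp upstream of the 5′ end at 145438462, on the plus strand in this build. There were 126 ChIP tags at the summit over a background of 9.92 tags. The fold was 11.6 (9.71 to 13.8), below the interval of the ARRDC3 peak, and 1.23% of all peaks had a higher fold. Over the lowest background of the list, 3.65 tags, taken as the caller's genome-wide background, the fold would be 27.3, and by width 5.19% of peaks ranked higher. By −log10 q, at 85.6, it ranked 71st, and on chromosome 1 it was 11th of 903 peaks by fold. The interval ran from 464 bp upstream to 75 bp downstream of the 5′ end.

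The other TXNIP peak was among the weakest of the list by fold. It spanned chromosome 1 from 145437520 to 145437814, and its summit was 797 bp upstream of the 5′ end and 701 bp from that of the stronger peak. Only 1.39% of neighbouring pairs in the list were as close. Its fold was 2.71 (1.97 to 3.63), from 42 tags, and 94.6% of all peaks had a higher fold. Its background of 14.9 tags was 4.08 times the lowest background in the list and higher than that of all but 2.81% of peaks. By pileup it stood higher, at rank 1631, and 126 tags at the neighbouring summit were exactly 3 times as many. No summit was called near the downstream TXNIP start, which RefSeq places 835 bp after the upstream one.

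ARRDC2, a less studied member of the family, had 1 narrow peak. It lay on chromosome 19 from 18111812 to 18111970 (hg19) and was 159 bp wide, against a median of 246 bp over the list. Its fold was 4.90 (3.61 to 6.53), from 45 tags over a background of 8.38 tags, and 23.6% of all peaks had a higher fold. Over the genome-wide background the fold would be 9.89. By pileup 14.5% of peaks ranked higher, and by width 88.8%. Its interval overlapped that of the ARRDC3 peak at the 5′ end, so their order was within the counting error of the ChIP tags. It also just reached that of the second TXNIP peak, whereas the intervals of those 2 peaks did not overlap each other. The position of the 5′ end of ARRDC2 on hg19 was not used here. RefSeq gives the gene 2 starts 7046 bp apart, and whether the peak lies at either of them was not analysed.

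**Figure D1:**
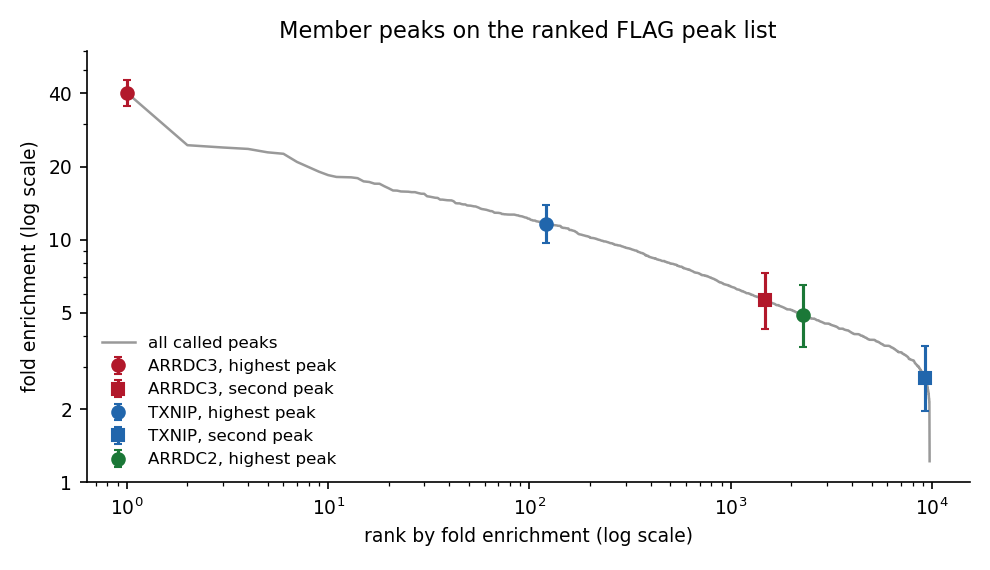
Fold enrichment (log scale) of all 9717 called FLAG peaks by rank (log scale; grey line), with the 5 peaks of ARRDC3, TXNIP and ARRDC2 as points; circles are the highest peak of a gene, squares the second, and bars are 95% Poisson intervals for counting error only. ARRDC3 holds the first rank at a fold of 40.3, TXNIP lies at 11.6, and the other 3 peaks lie between 2.71 and 5.64.

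ARRDC4, a close relative of TXNIP whose transcription also responds to glucose through MondoA, had no called peak. Its window ran over 34 kb of chromosome 15, from 98494000 to 98528000, around a 5′ end at 98503936. The nearest summits lay far outside it. One was 3697 kb before the 5′ end and had a fold of 3.57. The other was 688 kb after it (99191708 to 99192025) and had a fold of 15.9. The gap between these summits was 4385 kb, against a median of 99.6 kb, and 0.477% of neighbouring gaps in the list were as long or longer. Gaps in the genome assembly were not removed from these distances. A long gap covers more positions than a short one, so a given gene falls in such a gap more often than the share of gaps says. On the far side of ARRDC4 the next protein-coding gene in RefSeq's GRCh38 order is IGF1R, which encodes a receptor of insulin-like growth factor 1. Whether the peak of fold 15.9 lies in it was not analysed. The peak threshold is not given, but the smallest −log10 q of any called peak was 1.31. How much enrichment at ARRDC4 could have gone uncalled is not known. The smallest pileup called anywhere was 13 tags, which over the lowest background is a fold of 3.01. Lower folds were called over higher backgrounds, such as 2.71 over 14.9 tags at the second TXNIP peak. Whether fewer reads could be mapped there was not tested.

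**Figure D2:**
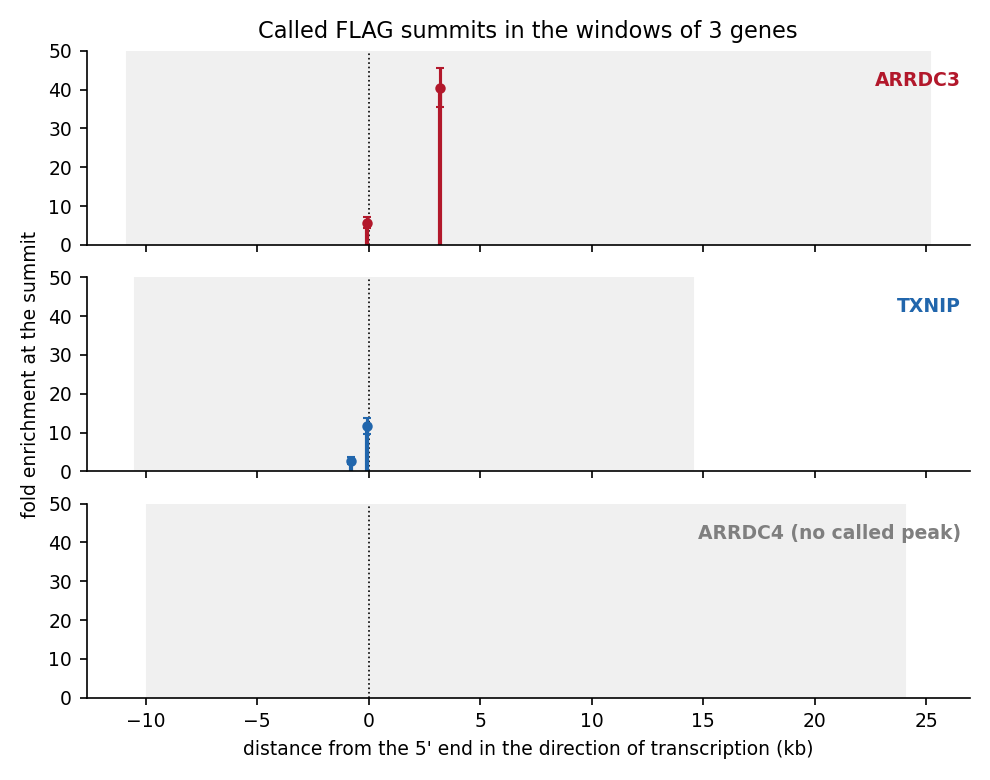
Called FLAG summits at ARRDC3, TXNIP and ARRDC4 by distance from the 5′ end in the direction of transcription (kb), with fold enrichment as height and 95% Poisson intervals as bars; grey marks each gene's window and the dotted line the 5′ end. The tall ARRDC3 summit stands 3204 bp inside the gene, the TXNIP summits lie 96 and 797 bp upstream, and the ARRDC4 window is empty. ARRDC2 is not drawn because its 5′ end was not used.

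At least 1 peak was found at 3 of the 4 genes and 2 peaks at 2 of them. The genes were proposed with these peaks known, so the shares over the whole list that follow are given for scale and nothing is read from them. Each chromosome was divided, between its outermost summits, into consecutive windows as long as those of the genes. These consecutive windows, unlike those of the genes, were placed without regard to genes or assembly gaps. At least 1 summit was held by 9.72% at the 36 kb of ARRDC3, 7.06% at the 25 kb of TXNIP and 9.27% at the 34 kb of ARRDC2 and ARRDC4. At least 2 summits, as at ARRDC3 and TXNIP, were held by 1.66% of the 36 kb windows and 0.964% of the 25 kb windows. A fold of 10 or more was seen in 2 of the 5 member peaks and 2.26% of all peaks, and a fold of 5 or more in 3 of the 5 and 22.1% of all. A −log10 q of 10 or more was reached by 4 of the 5 and by 25.5% of all peaks.

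Of the 5 member summits, the one nearest to an edge of its window was the second TXNIP summit, 9.665 kb inside. The nearest summit outside any window was 5.82 kb beyond the ARRDC2 window, on chromosome 19 from 18140593 to 18141079. It had 63 tags over a background of 8.38 tags, and its fold of 6.82 lay just above the interval of the ARRDC2 peak. All other summits next to a window were at least 56.5 kb outside it. At ARRDC3 these were a peak of fold 5.21 at 56.5 kb and one of fold 4.08 at 266 kb, and at TXNIP they were peaks of fold 4.12 at 89.8 kb and 3.45 at 144 kb. On the other side of ARRDC2 a peak of fold 4.88 lay 131 kb away.

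Tags and fold ranked the highest peaks of the genes alike but spaced them differently. ARRDC3's highest peak had 2.06 times the tags of TXNIP's, whereas its fold was 3.47 times as high. The backgrounds of the 5 peaks ran from 5.45 tags at the ARRDC3 downstream peak to 14.9 tags at the second TXNIP peak, and all 5 were above the lowest background of the list, 3.65 tags. The highest ARRDC3 and TXNIP peaks were 614 bp and 540 bp wide, and the other 3 peaks 159 to 295 bp. Among those 3 the widest, the second TXNIP peak, had the lowest fold and the fewest tags. Width, fold and q derive from the same pileup and are not independent. The 324 peaks within 10% of the width of the highest ARRDC3 peak had a median fold of 7.12. In the 531 peaks of a width like that of the highest TXNIP peak, the median fold was 6.30 and 6.03% were higher.

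**Figure D3:**
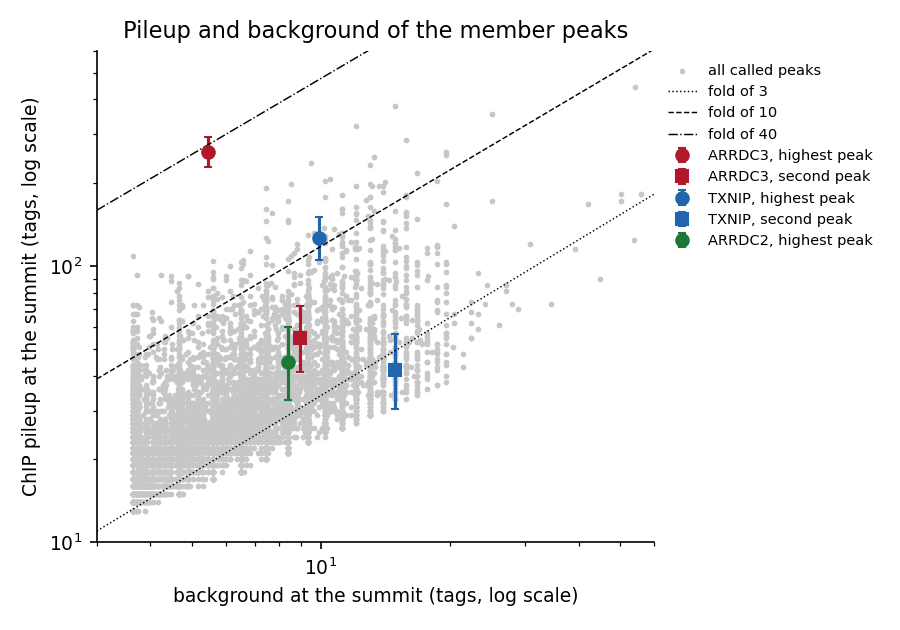
ChIP pileup against background at the summit of each called peak, both in tags on log scales, worked back from the authors' fold and p-value; grey points are all peaks, coloured points the members with 95% Poisson intervals of the pileup, and lines mark folds of 3, 10 and 40. The highest ARRDC3 peak stands apart at 259 tags over 5.45, and the second TXNIP peak lies under the line for a fold of 3 at 42 tags over 14.9; the 10 peaks with a background over 60 tags are outside the axes.

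The forkhead motif was found in the promoters that hold the 2 highest peaks and in none of the other 5. GTAAACA, searched on both strands from 250 bases before to 50 after each start, was present in 2 of the 7 member promoters and in 3.42% of the 35116 RefSeq promoters. Both matches were of the longer form GTAAACAA, which contains GTAAACA and was present in 0.954% of promoters. The short core AAACA, contained in both, was found in 5 of the 7 and in 44.4% of all. These included the upstream starts of ARRDC3 and ARRDC2 and the downstream start of TXNIP. ARRDC4 had none of the 3. A match is not a measured site, and a promoter without one can hold other forkhead sequences.

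Both matches lay close to the summits by distance. In ARRDC3 the match ran from 30 to 23 bp before the downstream start, which is 3190 to 3197 bp from the upstream start, and the hg19 summit lay 7 bp beyond it. In TXNIP the match ran from 124 to 117 bp before the upstream start, and the summit lay 21 bp from it. The match of ARRDC3 was on the opposite strand to the gene and that of TXNIP on the same strand. Read with the motif forward, the matches and their flanks are set side by side below, with GTAAACAA in capitals (GRCh38.p14, ARRDC3 at chr5:91380108-91380139 on the plus strand, TXNIP at chr1:145996684-145996715 on the minus strand).
ARRDC3 forkhead match with flanks: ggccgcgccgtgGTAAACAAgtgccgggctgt
TXNIP forkhead match with flanks: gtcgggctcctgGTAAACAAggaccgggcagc

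In these stretches 14 of the 24 flanking bases were identical, 6 of 12 before the motif and 8 of 12 after it, with an unbroken shared run of 11 bases, TGGTAAACAAG. How alike the flanks of other promoters with GTAAACAA are was not counted, so nothing is read from the 14. The run TGGTAAACAAG was chosen after the sequences were seen. It contains GTAAACAA, which both promoters were already known to hold, so only the 335 promoters with GTAAACAA could hold it. It occurred in 8 of those 335, which is 0.0228% of all 35116 promoters, and these belonged to 7 genes. These were ARRDC3, ARRDC3-AS1 and TXNIP, whose matches are those shown (the ARRDC3 and ARRDC3-AS1 windows overlap), and PRPSAP2, LINC01863, LOC105377445 and LOC105378554. Whether the last 4 have a FLAG peak was not analysed.

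**Figure D4:**
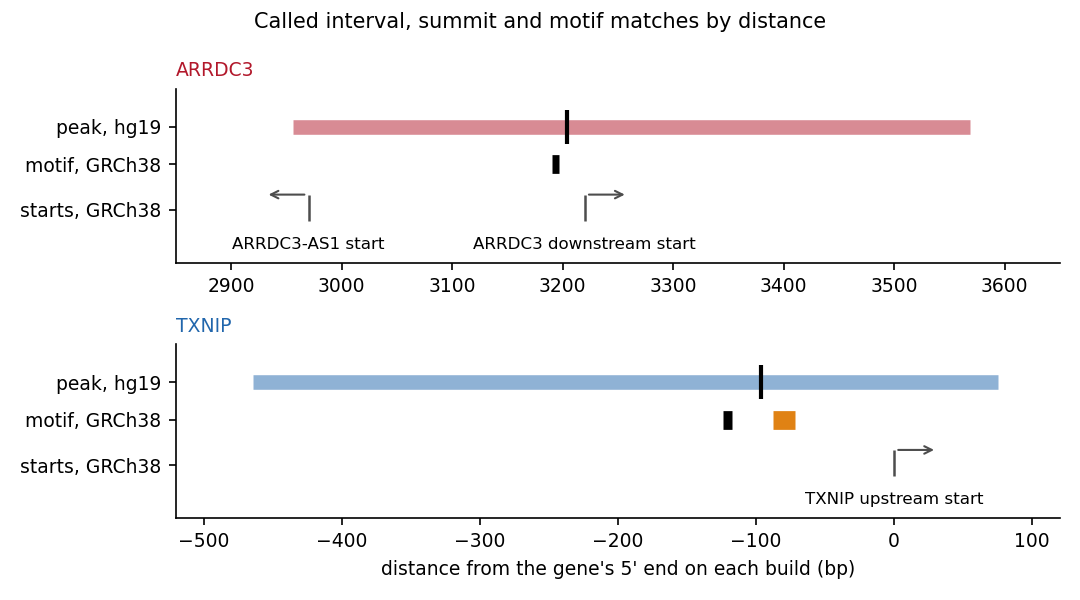
The called interval (coloured bar) and summit (black tick) of the highest ARRDC3 and TXNIP peaks on hg19, with GTAAACAA matches (black block), the TXNIP pair of CACGNG boxes (orange block) and annotated starts (arrows, direction of transcription) on GRCh38, by distance from the 5′ end on each build (bp). The GTAAACAA match lies 7 bp from the ARRDC3 summit and 21 bp from the TXNIP summit.

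TXNIP and ARRDC4 were also searched for the E boxes through which MondoA and Mlx act. The palindrome CACGTG was found in 1 of the 7 member promoters, that of ARRDC4, from 210 to 205 bp before its start, and in 7.26% of all promoters. The exact pair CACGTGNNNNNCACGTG was in none of the 7 and in 0.0057% of all. A looser pair, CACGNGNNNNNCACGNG, was searched after the sequences were seen. It was present in 20 promoters (0.057%), TXNIP's among them, where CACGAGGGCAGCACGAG (GRCh38.p14, chr1:145996651-145996667, minus strand) ran from 88 to 72 bp before the start. It lay 8 bp from the TXNIP summit by distance, on the side of the summit away from GTAAACAA, which was 21 bp from it. CCAAT, also searched afterwards and bound by the factor NF-Y, was found in 4 of the 7 promoters, among them those of TXNIP and ARRDC4, and in 34.6% of all. TXNIP had 2 matches, 5 bp and 40 bp from the summit by distance. Since the 5′ ends on the 2 builds were not checked to be the same base, which motif lies nearest to the summit is not known. A shift of a few bases would change the order of CCAAT at 5 bp and the CACGNG pair at 8 bp.

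The other arrestins could be followed only in sequence, since their positions on hg19 were not used here. RefSeq promoters were matched for ARRDC1 and for ARRB2, a beta-arrestin that uncouples receptors from G proteins. Of these 2 promoters none held GTAAACA or AAACA. The remaining genes listed for the family (ARRDC5 and ARRB1), its ubiquitin ligases, the glucose transporters and the factors MLXIP, MLXIPL and MLX were not analysed for peaks.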

How the data were processed

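One FLAG library of U87MG cells was analysed from its peak list. Per the submitters' processing notes, the tools were Trimmomatic, HISAT2 and MACS2 and the build hg19; no source used here gives versions, parameters, the peak threshold or the control library. The deposited fold is a ratio of pileup to background at the summit, the deposited −log10 p-value and q-value are those of the summit, and the deposited score is, in 100% of rows, 10 times the −log10 q cut to a whole number. All per-peak values are the authors'. The pileup and background were solved from fold, (pileup + 1) / (background + 1), and p, the upper Poisson tail. All 9717 peaks were recovered within 0.001 of the −log10 p, and the step returned 1179 of 1179 peaks simulated at random. The simulation used the same formulas, so it checks the solving and not which formulas the caller used. Members, windows and gene lists were chosen with earlier results of these data known. Every peak with its summit in a window was named, with the peaks next outside. Starts count from 1. Motif searches and windows used Python 3.11.15, numpy 2.4.6, scipy 1.17.1 and pandas 2.3.3. Promoters and gene order came from RefSeq on GRCh38.p14, with no coordinates converted. No test was made, since there is 1 ChIP library. Alternatives for windows, thresholds, background, ranking and distance were recomputed.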

Additional observations from a re-analysis of the deposited data

How the results depend on the processing

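Of the 32 alternatives of 10 values, 17 left the value within its interval, within 150 bp or, for counts, within 1.5 times. The other 15 moved it further. The interval of a share of peaks was a binomial (Wilson) one, which treats the peaks of 1 list as independent draws. The number of member peaks was 3 with a fold of at least 5, against 5 as reported, and 4 to 6 in the other settings, the 4 within 10 kb of the 5′ ends leaving out ARRDC2. Over the genome-wide background alone, the highest folds were 55.9 at ARRDC3, 27.3 at TXNIP and 9.89 at ARRDC2, in the same order, and without the added count of 1 that of ARRDC3 was 47.6. The share of peaks above ARRDC3's was 0.144% by pileup and 2.48% by width. For TXNIP it was 0.72% by −log10 q, 0.957% by pileup and 5.19% by width, and for ARRDC2 it was 16.1%, 14.5% and 88.8%. From its nearest edge, the ARRDC3 peak was 2956 bp from the 5′ end. The core AAACA was in 5 member promoters and GTAAACAA in 2, against 2 for GTAAACA. These motifs were fixed beforehand, but their use as alternatives here was not planned. No paired analysis was possible because there is 1 ChIP library and the input has no peak list. The smallest pileup among the called peaks was 13 tags, and what depth alone would allow was not tested.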
